A study of Homo sapiens with 48 samples.

Results

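The genes described here encode the constitutive proteasome and the factors that build or activate it. They were chosen by gene symbol and are 42 of the 33892 rows of the deposited count matrix. The 20S core has 13 members (PSMA1 to PSMA7, PSMB1, PSMB2 and PSMB4 to PSMB7), the ATPase base of the 19S particle has 5 (PSMC1, PSMC2, PSMC3, PSMC5 and PSMC6), and the 19S lid and receptor group has 16 (PSMD1 to PSMD14, ADRM1 and SEM1). The assembly factors are 6 (POMP, PSMG1 to PSMG4 and PAAF1) and the activators 2 (PSME3 and PSME4). All 42 passed the filter on low counts in each of the 8 lines. The core subunit PSMB3 and the base subunit PSMC4 are spread over several rows of the matrix and are not members.

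RNA was sequenced from 8 established human cancer cell lines: RKO and DLD-1 from colon, H-23 and H-1299 from lung, PANC-1 and CAPAN-2 from pancreas, and H-929 and RPMI from multiple myeloma. Each line was grown as a flat culture and kept for 24 h in carfilzomib, a covalent and irreversible proteasome inhibitor, or in its solvent DMSO. Each of the 16 groups had 3 biological replicates, which gives 48 libraries. Carfilzomib was given to every line at the IC50 for its proteasome activity. The concentrations were not used here, so lines are compared at a matched definition of dose and not at a known common concentration. The question these genes bear on is how cancer cells adjust their degradation machinery when it is blocked.

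The proteasome degrades proteins tagged with ubiquitin. Its 20S core is a stack of rings in which the outer alpha subunits (PSMA genes) form the gate and the inner beta subunits (PSMB genes) hold the proteolytic sites, with PSMB5 the main target of carfilzomib. The 19S particle caps the core: receptors bind ubiquitin, PSMD14 removes it, and the ATPases of the base unfold the substrate and push it into the core. POMP and the PSMG chaperones assemble the core, while PSMD5, PSMD9, PSMD10 and PAAF1 assemble the base and leave before the particle is finished. In mammalian cells NFE2L1 (also called NRF1) is the known activator of proteasome genes when proteasomes are inhibited, acting through antioxidant response elements in their promoters.

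Promoter sequences from RefSeq (GRCh38.p14, 250 bases before to 50 bases after a start) were on hand for 36 of the 42 members, all but PSMA7, PSMB1, PSMB6, PSMB7, PSMD4 and PSMG3. The core of the antioxidant response element, searched as TGACNNNGC on both strands, was present in 12 of the 36 (33.3%), against 16.1% of 27305 genes. The following stretches are shown because they hold that core in members that responded in opposite ways: PSMA4, PSMC5, PSMD3, PSMD12 and PSME4 had higher averages after carfilzomib, PSMG1 and PSMG2 lower ones. Capitals mark the match, in either orientation, and each stretch is written 5′ to 3′ on the strand of its gene.
PSMA4 (plus strand, chr15:78540644-78540684): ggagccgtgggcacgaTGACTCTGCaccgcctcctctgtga
PSMC5 (plus strand, chr17:63827648-63827688): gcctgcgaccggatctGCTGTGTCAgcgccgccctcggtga
PSMD3 (plus strand, chr17:39980754-39980794): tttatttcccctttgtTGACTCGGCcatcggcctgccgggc
PSMD12 (minus strand, chr17:67366718-67366758): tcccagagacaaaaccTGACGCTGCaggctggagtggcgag
PSME4 (minus strand, chr2:53971003-53971043): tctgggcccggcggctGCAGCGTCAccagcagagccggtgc
PSMG1 (minus strand, chr21:39183610-39183650): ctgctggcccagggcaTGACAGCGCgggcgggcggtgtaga
PSMG2 (plus strand, chr18:12658683-12658723): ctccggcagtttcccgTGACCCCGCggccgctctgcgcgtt

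Members with and without the core motif had similar median responses, compared without a test and only where a promoter sequence was on hand. The median average log2 fold change was 0.553 for the 12 members with TGACNNNGC and 0.552 for the 24 without it. Both kinds held members with higher and members with lower averages, from -0.21 (PSMG2) to 0.73 (PSMC5) with the motif and from -0.40 (PSMG4) to 0.86 (PSMD2) without it. CCAAT, a box bound by NF-Y, was found in 20 of the 36 promoters (55.6%, against 39.7% of all genes). The inverted repeats that make up a heat shock element were found in 1 member as GAANNTTC (SEM1, 2.78% against 8.21%) and in 4 as TTCNNGAA (PSMB5, PSMD5, PSMD6 and PAAF1, 11.1% against 9.46%). A match describes letters in this window only, and the part of NFE2L1 in these responses was not tested.

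Total counts ran from 9.12 M to 64.4 M per library, and the 42 genes together took 0.451% to 1.22% of them. Every member had at least 73 counts in each library. The median SE per gene was largest in H-929, at 0.0926 on the log2 scale. Plasma-cell markers (SDC1, TNFRSF17, IRF4, PRDM1, CD38 and MZB1) summed to between 4396 and 4527 CPM in H-929 and between 2034 and 2227 CPM in RPMI with DMSO. Epithelial markers (EPCAM, CDH1, KRT8, KRT18 and KRT19) summed with DMSO to between 4192 CPM (H-23) and 13612 CPM (CAPAN-2) in DLD-1, H-23, PANC-1 and CAPAN-2. The sums were 883 to 990.0 CPM in H-1299 and 144 to 166 CPM in RKO. In H-23 the sum was mostly KRT8 and KRT18, with DMSO means of 1863 and 2394 CPM. CDH1 was at 113 CPM there, and EPCAM and KRT19 at 4.75 and 4.34 CPM. VIM, a mesenchymal marker, had DMSO means of 1727 CPM in H-23 and 2492 CPM in PANC-1. The lung markers SFTPB and NAPSA were near 0 in both lung lines, at up to 4.72 CPM in H-23 and 1.69 CPM in H-1299. NAPSA was higher in the myeloma line H-929, at a DMSO mean of 38.8 CPM. PTPRC, a leukocyte marker, reached at most 0.598 CPM in the 6 carcinoma lines. It was low in the myeloma lines too, at DMSO means of 1.65 CPM in H-929 and 3.66 CPM in RPMI.

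Most proteasome genes rose with carfilzomib in 7 of the 8 lines, while in RKO a single member passed the test. A gene was called when its adjusted p, from edgeR's quasi-likelihood test with Benjamini-Hochberg adjustment over all genes tested in the line, was under 0.05. In RKO 0 members were called higher, where 3.62% of all genes tested were, and 1 (PSMD12) was called lower, where 5.28% were. At an unadjusted p under 0.05, RKO had 1 member higher (11.1% of all genes) and 4 lower (12.3%), and the Wald test of DESeq2 called 1 higher (5.05%) and 2 lower (7.33%). In DLD-1 34 members were higher (10.9% of all genes) and 0 lower (12.1%). At an unadjusted p 1 member of DLD-1 was lower (18.1%), and DESeq2 called 1 lower (15.3%).

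The lung lines gave 36 higher (17.7% of all genes) and 1 lower (16.2%) in H-23, and 34 higher (29.8%) and 3 lower (31.3%) in H-1299. The pancreatic lines gave 36 higher (20.5%) and 0 lower (18.2%) in PANC-1, where 0 were lower at an unadjusted p (22.2%) and DESeq2 called 0 lower (17.8%), and 36 higher (25.7%) and 2 lower (26.7%) in CAPAN-2. Of the myeloma lines, H-929 had 22 higher (26.4%) and 8 lower (26.2%), and RPMI had 34 higher (31.3%) and 6 lower (32.2%). Of the 336 pairs of a member and a line, 232 were called higher, 21 lower and 83 neither. Over all genes, 20.8% of such pairs were higher and 21.1% lower. These calls come from a fit of each line alone, and where 1 fit of all 48 libraries, the joint fit, ended or added a call of a gene described below, its value is given there. No member was higher in all 8 lines, 21 were higher in 7 and 10 in 6, and 31 were lower in none. The share of all genes with such numbers of lines was not computed.

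**Figure D1:**
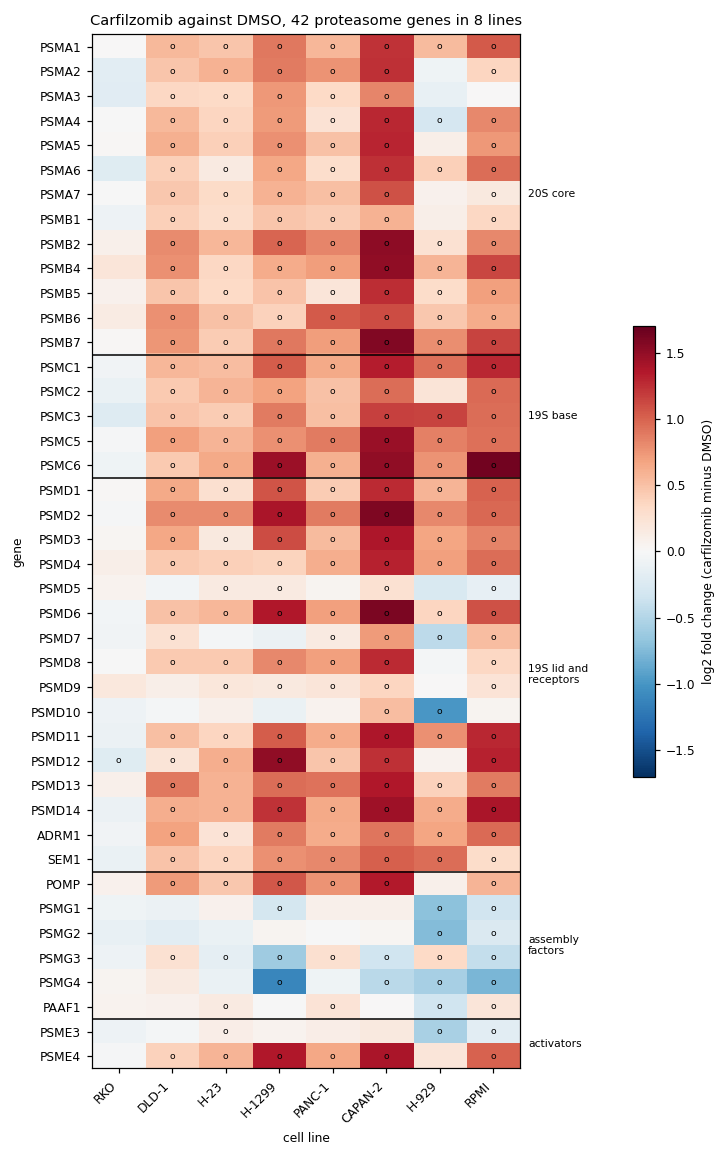
Log2 fold change (carfilzomib minus DMSO) of each of the 42 genes (rows, grouped by role) in each of the 8 lines (columns). Red is higher with carfilzomib, blue is lower, and a small circle marks an adjusted p under 0.05. The RKO column is pale with 1 circle, the CAPAN-2 column is the darkest red, and 14 of the 21 circled blue cells belong to assembly factors.

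Summed over the 42 genes, carfilzomib against DMSO ran from a ratio of 0.983 in RKO to 2.33 in CAPAN-2. Levels are CPM, the counts of a gene relative to the scaled total of its library, scaled within the 6 libraries of a line, so they are compared within a line only. In bulk RNA, fewer cells with a transcript and less of it per cell cannot be told apart. The sum over the 42 genes in RKO was 4758, 4869 and 4940 CPM with DMSO and 4619, 4896 and 4807 CPM with carfilzomib, and these libraries overlapped. CAPAN-2 went from 4961, 5180 and 4421 CPM to 11290, 11340 and 11360 CPM, well outside the spread of either group. The ratios of the other lines were 1.77 in H-1299, 1.73 in RPMI, 1.51 in PANC-1, 1.44 in DLD-1, 1.31 in H-929 and 1.31 in H-23, and in none of these 6 lines did the groups overlap.

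The median log2 fold change over the 42 members was -0.02 in RKO, 0.47 in DLD-1, 0.36 in H-23, 0.77 in H-1299, 0.52 in PANC-1, 1.24 in CAPAN-2, 0.29 in H-929 and 0.82 in RPMI. Over all genes tested the medians lay between -0.02 (CAPAN-2) and 0.03 (H-929). Averaged over the 8 lines in 1 fit of all 48 libraries, 34 members were higher (19.8% of 22309 genes) and 6 lower (23.9%), with a median of 0.55 against 0.02 over all genes. The SE of such an average reflects the spread between replicates within a group, not between lines. With the 8 lines as the units (limma on the log2 fold change of each line), 0 members passed at an adjusted p under 0.05, the lowest being 0.232, and 0 of all genes did. At an unadjusted p under 0.05 in that limma test, 31 members were higher (7.15% of all genes) and 1 lower (7.002%).

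**Figure D2:**
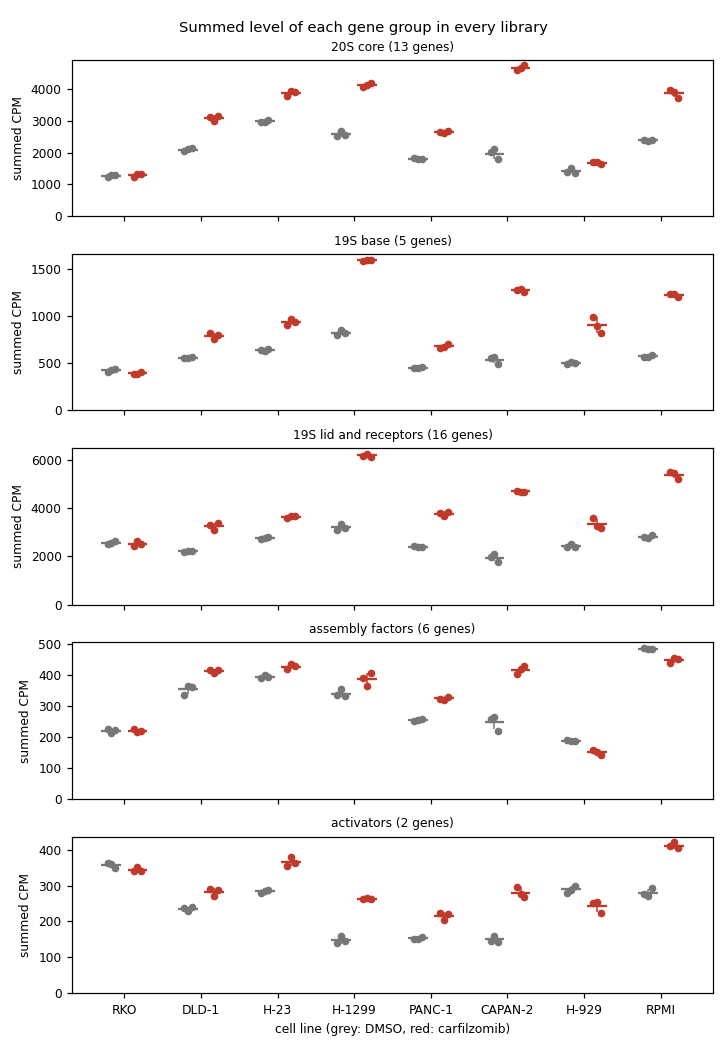
Summed level (CPM, scaled within a line) of each of the 5 gene groups in every library, grey for DMSO and red for carfilzomib, with the mean of 3 as a bar and its SD as a line. The core, base and lid rows separate red from grey in all lines but RKO, while the assembly factors fell below DMSO in H-929 and RPMI.

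All 13 genes of the 20S core had higher averages, from 0.24 (PSMA3) to 0.75 (PSMB7), with a median of 0.46. The 7 alpha genes had a median average of 0.44 and the 6 beta genes of 0.64. Every core gene rose in DLD-1, H-23, H-1299, PANC-1 and CAPAN-2. In RKO none of the 13 was called. In H-929 7 rose, 1 fell and 5 were not called, and in RPMI 12 rose. The joint fit did not call PSMA6 in H-23 (edgeR adjusted p = 0.266), PSMB2 in H-929 (0.238) or PSMA7 in RPMI (0.217).

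PSMB5 (ENSG00000100804, chr14:23016543-23035230, minus strand) encodes the chymotrypsin-like subunit to which carfilzomib binds. PSMB5 in the colon lines measured 62.6, 69.01 and 72.02 CPM with DMSO against 70.01, 72.5 and 72.3 CPM with carfilzomib in RKO, and 113, 109.97 and 115 CPM against 154, 148 and 165 CPM in DLD-1. PSMB5 in the lung lines measured 194, 202 and 202 CPM with DMSO against 246, 259 and 249.9 CPM with carfilzomib in H-23, and 127, 139 and 132 CPM against 181, 192 and 183 CPM in H-1299. The RKO groups overlapped, and in the other 3 lines every carfilzomib library lay above every DMSO library. PSMB5 in the pancreatic lines measured 87.2, 91.05 and 94.2 CPM with DMSO against 104, 105 and 105 CPM with carfilzomib in PANC-1, and 125, 130.2 and 111 CPM against 284, 289 and 301 CPM in CAPAN-2. PSMB5 in the myeloma lines measured 44.4, 40.5 and 44.9 CPM with DMSO against 60.1, 55.5 and 45.4 CPM with carfilzomib in H-929, and 87.4, 81.7 and 82.2 CPM against 144, 134 and 128 CPM in RPMI. CAPAN-2 rose 2.38-fold (log2 fold change 1.25 ± 0.06, SE, edgeR adjusted p = 1.01e-09). The smallest rise was in PANC-1 at 0.20 ± 0.04 (adjusted p = 8.08e-04 in edgeR), and the call in H-929 at 0.31 ± 0.12 was near the threshold (adjusted p = 0.0366 in edgeR). The average over lines was 0.44 ± 0.023, in the lower part of the core. The call of PSMB5 in H-929 was lost without DMSO replicate 1, 2 or 3, or carfilzomib replicate 1 or 2 (edgeR adjusted p between 0.0686 and 0.216). In the joint fit PSMB5 in H-929 was at 0.15 and not called (edgeR adjusted p = 0.0794).

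PSMB7 (ENSG00000136930, chr9:124353466-124415444, minus strand), the trypsin-like subunit, had the largest average of the core. PSMB7 in the colon lines measured 122, 122 and 123 CPM with DMSO against 120.2, 123 and 131 CPM with carfilzomib in RKO, and 75.7, 71.6 and 74.1 CPM against 125, 115 and 132 CPM in DLD-1. PSMB7 in the lung lines measured 79.3, 80.6 and 81.2 CPM with DMSO against 103, 106 and 114 CPM with carfilzomib in H-23, and 155, 168 and 155 CPM against 294, 304 and 294 CPM in H-1299. The RKO groups overlapped, and the other 3 lines rose. PSMB7 in the pancreatic lines measured 49.1, 45.1 and 47.9 CPM with DMSO against 78.1, 76.99 and 77.995 CPM with carfilzomib in PANC-1, and 68.1, 68.7 and 61.6 CPM against 198, 194 and 200.2 CPM in CAPAN-2. PSMB7 in the myeloma lines measured 58.7, 58.8 and 53.6 CPM with DMSO against 102, 97.9 and 96.96 CPM with carfilzomib in H-929, and 102, 107 and 108 CPM against 240.2, 238 and 227 CPM in RPMI. PSMB7 rose in every line but RKO, without overlap, from 0.43 ± 0.04 in H-23 to 1.58 ± 0.06 in CAPAN-2, and its average was 0.75 ± 0.019 (edgeR adjusted p = 1.01e-32).

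PSMA3 (ENSG00000100567, chr14:58244831-58272012, plus strand), an alpha-ring subunit, had the smallest average of the core. PSMA3 in the colon lines measured 68.5, 69.7 and 63.6 CPM with DMSO against 57.9, 59.5 and 59.1 CPM with carfilzomib in RKO, and 117, 122 and 137 CPM against 159, 156 and 164 CPM in DLD-1. PSMA3 in the lung lines measured 149, 160.1 and 152 CPM with DMSO against 197, 196 and 189 CPM with carfilzomib in H-23, and 112, 123 and 112 CPM against 191, 189 and 200.3 CPM in H-1299. The RKO values lay below DMSO without overlap, at -0.19 ± 0.06, but did not pass the test (edgeR adjusted p = 0.0654). PSMA3 in the pancreatic lines measured 71.95, 68.3 and 69.6 CPM with DMSO against 87.3, 87.8 and 89.9 CPM with carfilzomib in PANC-1, and 135, 140.1 and 118 CPM against 224, 235 and 243 CPM in CAPAN-2. PSMA3 in the myeloma lines measured 89.8, 89.4 and 91.4 CPM with DMSO against 78.2, 88.3 and 81.6 CPM with carfilzomib in H-929, and 136, 141 and 143 CPM against 149.6, 142 and 129 CPM in RPMI. Fitted alone, neither myeloma line was called for PSMA3, with log2 fold changes of -0.13 in H-929 and 0.00 in RPMI, while the other 5 lines rose by 0.34 to 0.83. In the joint fit PSMA3 was called lower in H-929, at -0.29 (edgeR adjusted p = 5.77e-05), and in RKO, at -0.19 (edgeR adjusted p = 0.0435). PSMA2, PSMB5, PSMD5 and PSMD8 in H-929 were also lower in that fit than in the line alone, each by an amount similar to that of PSMA3. The shift was thus not particular to PSMA3.

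Among the remaining core genes, PSMA4, an alpha subunit, was the only core gene called lower when lines were fitted alone, at -0.28 ± 0.10 in H-929 (edgeR adjusted p = 0.0240), and it rose by 1.28 in CAPAN-2. The call of PSMA4 in H-929 was lost without DMSO replicate 2 (edgeR adjusted p = 0.0829). With genes of at least 50 counts it was at -0.17 and not called (edgeR adjusted p = 0.141). PSMA2 rose by 0.88 in H-1299 and in H-929 was at -0.08 and not called alone, but was lower in the joint fit at -0.24 (edgeR adjusted p = 0.0113). PSMB6, the caspase-like subunit, rose by 1.04 in PANC-1 and 1.11 in CAPAN-2, against 0.40 in H-1299. PSMA1 rose in every line but RKO, from 0.47 in H-23 to 1.23 in CAPAN-2, and PSMA5 and PSMA7 were not called in H-929 either (0.10 and 0.07). PSMB4 and PSMB2, structural beta subunits, averaged 0.70 and 0.69. PSMB4 in RKO was the largest positive value of that line (0.21 ± 0.06) and did not pass, though it was called higher in the joint fit (edgeR adjusted p = 0.0221) and in 5 other alternatives. PSMB1 averaged 0.28, but its row carries an identifier that is not in the reference annotation used for lengths, and it was matched by symbol only, so its level may cover part of the gene's reads.

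The 5 base ATPases rose together in 6 lines. All were called higher in DLD-1, H-23, H-1299, PANC-1, CAPAN-2 and RPMI, 4 of the 5 in H-929, and none in RKO, where all 5 values were below 0 and PSMC3 alone had an unadjusted p under 0.05. PSMC3 in RKO was called lower in the joint fit (-0.23, edgeR adjusted p = 0.0292). The median average was 0.73, and in H-929 the base (median 0.86) moved further than the core (0.26).

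PSMC6 (ENSG00000100519, chr14:52707172-52728587, plus strand), an ATPase, differed most between lines of all 42 genes (F = 91.2, 7 degrees of freedom, edgeR adjusted p = 6.60e-22). PSMC6 in the colon lines measured 75.9, 71.8 and 80.2 CPM with DMSO against 70.3, 72.9 and 73.2 CPM with carfilzomib in RKO, and 128, 135 and 141 CPM against 197, 171 and 182 CPM in DLD-1. PSMC6 in the lung lines measured 153, 150.1 and 151 CPM with DMSO against 225, 247 and 234 CPM with carfilzomib in H-23, and 104, 109.8 and 102 CPM against 289, 282 and 296 CPM in H-1299. RKO overlapped, and H-1299 rose the most of these 4 lines. PSMC6 in the pancreatic lines measured 79.96, 79.5 and 79.4 CPM with DMSO against 116, 119.8 and 127 CPM with carfilzomib in PANC-1, and 133, 127 and 116 CPM against 354, 364 and 348 CPM in CAPAN-2. PSMC6 in the myeloma lines measured 74.7, 75.1 and 78.03 CPM with DMSO against 142, 133 and 112 CPM with carfilzomib in H-929, and 68.6, 72.7 and 74.6 CPM against 224, 232 and 217 CPM in RPMI. The rise was largest in RPMI (log2 fold change 1.64 ± 0.05, 3.11-fold, edgeR adjusted p = 3.63e-11), against -0.08 ± 0.06 in RKO. The rise was 1.51 in CAPAN-2 and 1.46 in H-1299, against 0.44 in DLD-1.

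PSMC2 (ENSG00000161057, chr7:103344254-103369395, plus strand), another ATPase, had the smallest average of the base at 0.49 ± 0.020. PSMC2 in the colon lines measured 115, 113 and 121 CPM with DMSO against 104, 102 and 117 CPM with carfilzomib in RKO, and 137, 137 and 140.5 CPM against 196, 179 and 189.7 CPM in DLD-1. PSMC2 in the lung lines measured 151, 147 and 149.97 CPM with DMSO against 216, 233 and 219 CPM with carfilzomib in H-23, and 158, 167 and 166 CPM against 257, 259.9 and 272 CPM in H-1299. The 3 lines other than RKO rose without overlap. PSMC2 in the pancreatic lines measured 121, 117 and 123 CPM with DMSO against 166, 173 and 173 CPM with carfilzomib in PANC-1, and 182, 189.9 and 168 CPM against 352, 355 and 338 CPM in CAPAN-2. PSMC2 in the myeloma lines measured 97.6, 105 and 106 CPM with DMSO against 127, 126 and 106 CPM with carfilzomib in H-929, and 193, 181 and 187 CPM against 362, 379 and 349 CPM in RPMI. In H-929 the log2 fold change of 0.22 ± 0.09 did not pass (edgeR adjusted p = 0.0556). It passed with DESeq2's size factors, library totals and genes of at least 50 counts (edgeR adjusted p between 0.00645 and 0.0455, the last filter giving 0.33), by DESeq2's Wald test, and without carfilzomib replicate 3. PSMC1, PSMC3 and PSMC5, the other ATPases, averaged 0.74, 0.63 and 0.73, and PSMC3 reached 1.14 ± 0.08 in H-929, the largest value of any member in that line.

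**Figure D3:**
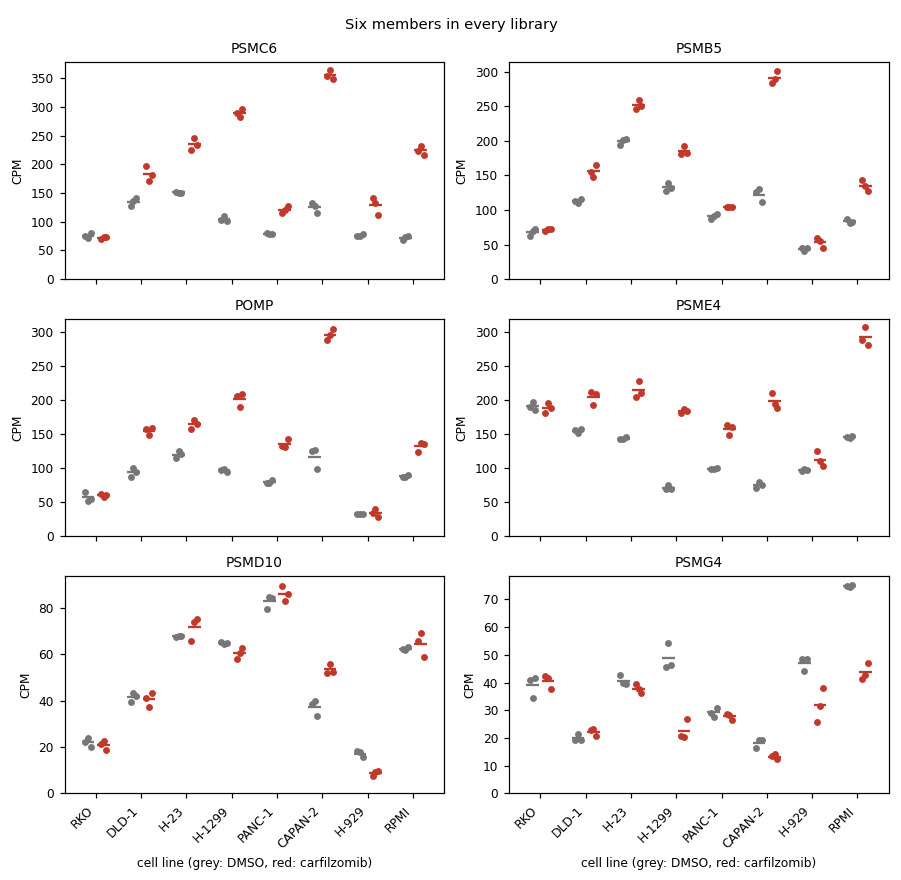
CPM (scaled within a line) of PSMC6, PSMB5, POMP, PSME4, PSMD10 and PSMG4 in every library, grey for DMSO and red for carfilzomib, with bars at the mean of 3. PSMC6 rose 3.11-fold in RPMI, PSMD10 was called lower in H-929 and higher in CAPAN-2, and PSMG4 was called lower in 4 lines.

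Of the 16 lid and receptor genes, 14 had higher averages, 1 (PSMD10) a lower one and 1 (PSMD5) neither, with a median of 0.59. The 13 that stay in the finished particle all had higher averages, with a median of 0.62, against -0.01, 0.14 and -0.10 for the base chaperones PSMD5, PSMD9 and PSMD10. The non-ATPase scaffold PSMD2 had the largest average of all 42 genes, 0.86 ± 0.022, followed in this group by the deubiquitinase PSMD14 (0.76), PSMD6 (0.72) and PSMD13 (0.72). The ubiquitin receptors PSMD4 and ADRM1 averaged 0.57 and 0.57, and the small lid subunit SEM1 0.54.

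The scaffold PSMD2 (ENSG00000175166, chr3:184298709-184309054, plus strand) binds substrate shuttles and deubiquitinases at the base of the particle. PSMD2 in the colon lines measured 723, 785 and 808 CPM with DMSO against 726, 796 and 760.02 CPM with carfilzomib in RKO, and 191, 188 and 194 CPM against 332, 314 and 354 CPM in DLD-1. PSMD2 in the lung lines measured 229.6, 231 and 234 CPM with DMSO against 400.5, 417 and 399 CPM with carfilzomib in H-23, and 453, 503 and 479 CPM against 1247, 1290.5 and 1218 CPM in H-1299. The RKO groups overlapped, and the other 3 rose without overlap. PSMD2 in the pancreatic lines measured 511, 504 and 511 CPM with DMSO against 949, 901 and 966 CPM with carfilzomib in PANC-1, and 247, 266 and 223 CPM against 747, 721 and 744 CPM in CAPAN-2. PSMD2 in the myeloma lines measured 218, 246 and 212 CPM with DMSO against 446, 379 and 371 CPM with carfilzomib in H-929, and 569, 574 and 589.6 CPM against 1182, 1123 and 1102 CPM in RPMI. The rise was between 0.80 (DLD-1) and 1.59 (CAPAN-2) in the 7 lines other than RKO, with no overlap, and H-929 rose by 0.82 ± 0.09.

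PSMD14 (ENSG00000115233, chr2:161308038-161411717, plus strand), the metalloprotease that cuts ubiquitin chains off the substrate, averaged 0.76 ± 0.023. It is shown for its enzymatic role, a choice made after its values were seen. PSMD14 in the colon lines measured 105, 95.6 and 99.1 CPM with DMSO against 93.7, 95.4 and 89.7 CPM with carfilzomib in RKO, and 165, 161 and 179 CPM against 266, 245 and 264 CPM in DLD-1. PSMD14 in the lung lines measured 192, 192 and 196 CPM with DMSO against 282, 291 and 299.6 CPM with carfilzomib in H-23, and 309, 326 and 305 CPM against 741, 727 and 745 CPM in H-1299. RKO lay slightly below DMSO without overlap and was not called (-0.10 ± 0.05, edgeR adjusted p = 0.269). PSMD14 in the pancreatic lines measured 134, 129.5 and 134 CPM with DMSO against 208, 201 and 210.4 CPM with carfilzomib in PANC-1, and 122, 138 and 112 CPM against 340.2, 339 and 335 CPM in CAPAN-2. PSMD14 in the myeloma lines measured 95.4, 106 and 93.4 CPM with DMSO against 176, 149 and 132 CPM with carfilzomib in H-929, and 226, 223 and 231 CPM against 600.4, 605 and 580.1 CPM in RPMI. The rise was largest in CAPAN-2 (1.45) and RPMI (1.39) and smallest in H-23 (0.59).

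The structural subunits PSMD1, PSMD3, PSMD6, PSMD11 and PSMD13 rose in the 7 lines other than RKO. PSMD6 ranged from 0.37 in H-929 to 1.59 in CAPAN-2, and PSMD3 from 0.17 in H-23, a call the joint fit did not make (edgeR adjusted p = 0.0834), to 1.37 in CAPAN-2. PSMD8, another lid subunit, rose in 6 lines and was at -0.03 in H-929, where the joint fit called it lower at -0.20 (edgeR adjusted p = 0.00262). The receptors followed the same division of lines, with ADRM1 between 0.23 (H-23) and 0.96 (RPMI) and PSMD4 between 0.38 (H-1299) and 1.31 (CAPAN-2) outside RKO. SEM1 was the exception in H-929, where its rise of 0.95 ± 0.14 was close to that in CAPAN-2 (1.02 ± 0.07).

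PSMD10 (ENSG00000101843, chrX:108084207-108091618, minus strand), the ankyrin-repeat chaperone also called gankyrin, had the lowest average of the group, -0.10 ± 0.028. PSMD10 in the colon lines measured 22.3, 24.02 and 20.04 CPM with DMSO against 21.1, 22.4 and 18.8 CPM with carfilzomib in RKO, and 39.4, 43.5 and 41.9 CPM against 41.3, 37.5 and 43.5 CPM in DLD-1. PSMD10 in the lung lines measured 67.4, 68.1 and 67.97 CPM with DMSO against 65.9, 74.2 and 75.4 CPM with carfilzomib in H-23, and 65.5, 64.6 and 64.9 CPM against 57.8, 60.8 and 62.6 CPM in H-1299. None of these 4 lines was called. PSMD10 in the pancreatic lines measured 79.5, 84.9 and 84.3 CPM with DMSO against 89.6, 83.01 and 86.1 CPM with carfilzomib in PANC-1, and 38.5, 39.7 and 33.3 CPM against 52.1, 56.03 and 52.5 CPM in CAPAN-2. PSMD10 in the myeloma lines measured 18.3, 17.7 and 15.7 CPM with DMSO against 7.38, 9.08 and 9.52 CPM with carfilzomib in H-929, and 62.4, 61.9 and 63.04 CPM against 65.6, 69.02 and 58.8 CPM in RPMI. H-929 fell to 0.502 of its DMSO level (-0.99 ± 0.18, edgeR adjusted p = 2.96e-04), and CAPAN-2 rose by 0.53 ± 0.07. Fitted alone, the lines gave 1 fall, 1 rise and 6 without a call. The joint fit, from which the average comes, also called H-1299 lower (-0.18, edgeR adjusted p = 0.0289), as did library totals (-0.22, edgeR adjusted p = 0.00171). Without the replicate 1 libraries of all groups the average did not pass (-0.09, edgeR adjusted p = 0.0636).

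PSMD5 and PSMD9 are the other base chaperones of this group, and most of their calls depended on the fit. PSMD5 ranged from -0.25 in H-929, not called (edgeR adjusted p = 0.241), to 0.25 in CAPAN-2, and was called lower in RPMI (-0.14). In the joint fit PSMD5 in H-929 was lower, at -0.42 (edgeR adjusted p = 6.07e-04), and its higher calls in H-23 and H-1299 were lost (edgeR adjusted p = 0.260 and 0.392). The call of PSMD5 in RPMI was lost without DMSO replicate 1 or 3, or carfilzomib replicate 1, 2 or 3 (edgeR adjusted p between 0.0640 and 0.122). PSMD9 was called higher in 5 lines by at most 0.36, and the joint fit ended the calls in H-23, H-1299, PANC-1 and RPMI (edgeR adjusted p from 0.106 to 0.345). The call of PSMD9 in H-1299 was lost without DMSO replicate 1 or 3, or carfilzomib replicate 2 (edgeR adjusted p between 0.0502 and 0.137). PSMD7, a structural partner of PSMD14 in the lid, was, fitted alone, the one subunit of the finished 19S particle called lower in H-929 (-0.44 ± 0.07, edgeR adjusted p = 1.09e-04), and in H-1299, where PSMD14 rose by 1.23, PSMD7 was at -0.10 ± 0.05 and not called. PSMD7 in H-1299 was called lower in the joint fit (-0.17, edgeR adjusted p = 0.00272) and with library totals (-0.21, edgeR adjusted p = 6.77e-04). PSMD12, a lid subunit, gave the single call of RKO: 187, 184 and 172 CPM with DMSO against 159, 162 and 150.1 CPM with carfilzomib (-0.20 ± 0.05, edgeR adjusted p = 0.0219). The same gene rose by 1.51 ± 0.05 in H-1299, its largest change. The call of PSMD12 in RKO was lost without DMSO replicate 1 or 2, or carfilzomib replicate 1 or 3 (edgeR adjusted p between 0.0518 and 0.120). It was lost too in the joint fit and with library totals (edgeR adjusted p = 0.0956 and 0.0629).

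Grouped by fate rather than by symbol, a grouping made after the values were seen, the 8 chaperones that leave (PSMD5, PSMD9, PSMD10, PAAF1 and PSMG1 to PSMG4) gave 64 pairs of gene and line, of which 15 were called higher, 16 lower and 33 neither, shares near those of all genes (20.8% and 21.1%). POMP, which is consumed by the new core and rose in 6 lines, is not among these 8. The 31 subunits of the finished particle gave 248 pairs, of which 204 were higher, 3 lower and 41 neither. The median over those pairs was 0.01 for the chaperones and 0.59 for the subunits.

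The 6 assembly factors split. POMP, which brings the beta rings together and is degraded by the new core, rose, and the 4 PSMG chaperones had lower averages. PAAF1, a base chaperone, had neither, at 0.01 ± 0.031 (edgeR adjusted p = 1.00), with calls in both directions: higher in H-23, PANC-1 and RPMI and lower in H-929 (-0.34). The call of PAAF1 in H-23 was lost without any 1 of the 6 libraries (edgeR adjusted p between 0.0502 and 0.178). The call of PAAF1 in H-929 was lost without DMSO replicate 2 or 3, or carfilzomib replicate 3 (edgeR adjusted p between 0.104 and 0.141). The call of PAAF1 in RPMI was lost without DMSO replicate 2 (edgeR adjusted p = 0.0539). The joint fit ended the 3 higher calls of PAAF1 (edgeR adjusted p from 0.0527 in PANC-1 to 0.344 in H-23). DESeq2's size factors, library totals, genes of at least 50 counts and the replicate block ended the lower call in H-929 (edgeR adjusted p between 0.0542 and 0.159), as did DESeq2's Wald test.

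POMP (ENSG00000132963, chr13:28659104-28678925, plus strand) averaged 0.59 ± 0.027. POMP in the colon lines measured 65.1, 52.1 and 54.9 CPM with DMSO against 62.6, 57.4 and 60.5 CPM with carfilzomib in RKO, and 87.6, 100.5 and 94.4 CPM against 158, 149 and 158 CPM in DLD-1. POMP in the lung lines measured 114, 125 and 120.5 CPM with DMSO against 158, 171 and 165 CPM with carfilzomib in H-23, and 97.99, 99.5 and 93.96 CPM against 207, 189.9 and 209 CPM in H-1299. H-1299 rose 2.08-fold, and the RKO groups overlapped. POMP in the pancreatic lines measured 79.03, 78.4 and 82.7 CPM with DMSO against 133, 131 and 142 CPM with carfilzomib in PANC-1, and 125, 126 and 99.3 CPM against 288, 295 and 305 CPM in CAPAN-2. POMP in the myeloma lines measured 32.4, 33.03 and 32.8 CPM with DMSO against 34.8, 40.4 and 28.7 CPM with carfilzomib in H-929, and 87.5, 86.7 and 90.5 CPM against 124, 137 and 135 CPM in RPMI. POMP was not called in H-929 (0.08 ± 0.13, edgeR adjusted p = 0.626), and rose most in CAPAN-2 (1.34 ± 0.08).

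PSMG1 and PSMG2 form the dimer that starts the alpha ring. PSMG1 (ENSG00000183527, chr21:39174769-39183851, minus strand) averaged -0.20 ± 0.029 and PSMG2 (ENSG00000128789, chr18:12658043-12725740, plus strand) averaged -0.21 ± 0.029. PSMG1 in the colon lines measured 37.2, 39.9 and 40.7 CPM with DMSO against 37.8, 35.2 and 38.6 CPM with carfilzomib in RKO, and 79.6, 84.97 and 88.8 CPM against 76.8, 78.5 and 81.99 CPM in DLD-1. PSMG1 in the lung lines measured 42.1, 40.7 and 42.9 CPM with DMSO against 43.5, 45.8 and 42.9 CPM with carfilzomib in H-23, and 68.8, 73.7 and 67.5 CPM against 58.6, 52.8 and 59.8 CPM in H-1299. H-1299 fell by 0.30 on the log2 scale without overlap. PSMG1 in the pancreatic lines measured 43.3, 44.998 and 44.9 CPM with DMSO against 49.2, 44.03 and 47.9 CPM with carfilzomib in PANC-1, and 30.8, 29.8 and 23.5 CPM against 28.3, 31.05 and 29.4 CPM in CAPAN-2. PSMG1 in the myeloma lines measured 38.6, 33.5 and 32.8 CPM with DMSO against 27.1, 18.9 and 18.4 CPM with carfilzomib in H-929, and 137, 136 and 137 CPM against 109, 112 and 107 CPM in RPMI. Both myeloma lines fell, H-929 by 0.70 and RPMI by 0.32 on the log2 scale.

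The partner PSMG2 gave the same calls in the myeloma lines. PSMG2 in the colon lines measured 26.5, 29.1 and 29.1 CPM with DMSO against 26.7, 23.2 and 27.8 CPM with carfilzomib in RKO, and 75.9, 81.001 and 89.4 CPM against 72.2, 73.7 and 70.4 CPM in DLD-1. PSMG2 in the lung lines measured 70.5, 71.5 and 72.1 CPM with DMSO against 61.1, 65.9 and 70.1 CPM with carfilzomib in H-23, and 48.97, 46.8 and 45.98 CPM against 49.04, 46.9 and 51.1 CPM in H-1299. The values of DLD-1 lay below DMSO without overlap but missed the threshold (edgeR adjusted p = 0.0518), which they passed without a filter and by DESeq2. In H-23 PSMG2 was not called, but was lower with library totals, without a filter and without carfilzomib replicate 3 (edgeR adjusted p between 0.0175 and 0.0250). PSMG2 in the pancreatic lines measured 33.8, 38.2 and 35.9 CPM with DMSO against 37.5, 35.05 and 35.3 CPM with carfilzomib in PANC-1, and 44.4, 42.5 and 37.02 CPM against 39.7, 44.8 and 42.3 CPM in CAPAN-2. PSMG2 in the myeloma lines measured 24.1, 24.8 and 25.3 CPM with DMSO against 19.1, 13.4 and 12.1 CPM with carfilzomib in H-929, and 88.3, 88.03 and 82.1 CPM against 71.8, 72.96 and 72.3 CPM in RPMI. PSMG2 in H-929 changed by -0.73 ± 0.17 and in RPMI by -0.25 ± 0.05.

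PSMG3 and PSMG4 form the other chaperone dimer of the alpha ring. PSMG4 (ENSG00000180822, chr6:3231403-3303373, plus strand) had the lowest average of all 42 genes, -0.40 ± 0.033 (edgeR adjusted p = 2.33e-14). PSMG4 in the colon lines measured 41.01, 34.3 and 41.8 CPM with DMSO against 42.3, 41.6 and 37.8 CPM with carfilzomib in RKO, and 19.4, 21.4 and 19.4 CPM against 23.01, 23.2 and 20.6 CPM in DLD-1. PSMG4 in the lung lines measured 42.8, 39.98 and 39.4 CPM with DMSO against 39.5, 37.8 and 36.1 CPM with carfilzomib in H-23, and 45.6, 54.3 and 46.3 CPM against 20.6, 20.3 and 27.01 CPM in H-1299. H-1299 fell to 0.464 of its DMSO level. PSMG4 in the pancreatic lines measured 29.2, 27.6 and 30.9 CPM with DMSO against 28.7, 28.2 and 26.5 CPM with carfilzomib in PANC-1, and 16.3, 19.3 and 19.3 CPM against 13.5, 14.1 and 12.5 CPM in CAPAN-2. PSMG4 in the myeloma lines measured 48.5, 44.4 and 48.5 CPM with DMSO against 25.8, 31.7 and 37.97 CPM with carfilzomib in H-929, and 74.96, 74.4 and 75.2 CPM against 41.2, 42.8 and 47.2 CPM in RPMI. The falls were -1.11 ± 0.11 in H-1299, -0.77 ± 0.06 in RPMI, -0.57 ± 0.13 in H-929 and -0.45 ± 0.09 in CAPAN-2, all without overlap, and no line was called higher. PSMG3 moved both ways: it fell in H-1299 (-0.60), RPMI (-0.40), CAPAN-2 (-0.34) and H-23 (-0.15) and rose in H-929 (0.34), PANC-1 (0.27) and DLD-1 (0.26). The call of PSMG3 in H-929 was lost without DMSO replicate 1, 2 or 3, or carfilzomib replicate 1 or 3 (edgeR adjusted p between 0.102 and 0.163). It was also lost without a filter and with the replicate block (edgeR adjusted p = 0.0536).

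The 2 activators parted. PSME4 (ENSG00000068878, chr2:53864067-53970840, minus strand) encodes PA200, an ATP-independent cap of the core in the nucleus. PSME4 in the colon lines measured 190.5, 196 and 186 CPM with DMSO against 181, 196 and 188 CPM with carfilzomib in RKO, and 156, 151 and 157 CPM against 211, 192 and 208 CPM in DLD-1. PSME4 in the lung lines measured 143, 142 and 145 CPM with DMSO against 204, 228 and 211 CPM with carfilzomib in H-23, and 69.2, 75.9 and 69.8 CPM against 181, 188 and 183 CPM in H-1299. The RKO groups overlapped, and H-1299 rose by 1.36 ± 0.05. PSME4 in the pancreatic lines measured 98.4, 99.1 and 101 CPM with DMSO against 164, 149 and 159.9 CPM with carfilzomib in PANC-1, and 71.4, 79.98 and 75.98 CPM against 211, 194 and 189 CPM in CAPAN-2. PSME4 in the myeloma lines measured 95.6, 99.02 and 97.8 CPM with DMSO against 125, 110.3 and 103 CPM with carfilzomib in H-929, and 145, 144 and 148 CPM against 289, 307 and 281 CPM in RPMI. H-929 lay above DMSO in all 3 libraries, at 0.21 ± 0.09, but did not pass (edgeR adjusted p = 0.0609), and the average was 0.66 ± 0.020. PSME4 in H-929 passed with DESeq2's size factors, library totals and genes of at least 50 counts (edgeR adjusted p between 0.00659 and 0.0499), by DESeq2's Wald test, and without carfilzomib replicate 3.

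PSME3 (ENSG00000131467, chr17:42824385-42843758, plus strand) encodes PA28 gamma, the nuclear ring-shaped activator. PSME3 in the colon lines measured 173, 163 and 162 CPM with DMSO against 159.9, 156 and 153 CPM with carfilzomib in RKO, and 80.3, 78.5 and 84.2 CPM against 80.01, 78.99 and 79.3 CPM in DLD-1. PSME3 in the lung lines measured 136, 141 and 143 CPM with DMSO against 151, 151 and 152 CPM with carfilzomib in H-23, and 70.7, 82.5 and 75.3 CPM against 80.6, 78.2 and 79.6 CPM in H-1299. H-23 was called higher, by 0.11. PSME3 in the pancreatic lines measured 52.9, 51.6 and 55.9 CPM with DMSO against 58.7, 55.5 and 59.9 CPM with carfilzomib in PANC-1, and 74.4, 79.7 and 67.4 CPM against 86.2, 81.3 and 79.7 CPM in CAPAN-2. PSME3 in the myeloma lines measured 184, 189 and 202 CPM with DMSO against 128, 144 and 121 CPM with carfilzomib in H-929, and 132, 127 and 145 CPM against 121, 116 and 123 CPM in RPMI. Both myeloma lines fell, with log2 fold changes of -0.55 ± 0.08 in H-929 and -0.17 ± 0.06 in RPMI, and the average was -0.09 ± 0.021. The call of PSME3 in H-23 was lost without any 1 of the 6 libraries (edgeR adjusted p between 0.0508 and 0.149). The call of PSME3 in RPMI was lost without DMSO replicate 3, or carfilzomib replicate 2 (edgeR adjusted p between 0.0683 and 0.0852). The joint fit ended the call in H-23 (edgeR adjusted p = 0.329) and called CAPAN-2 higher (0.18, edgeR adjusted p = 0.0118).

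**Figure D4:**
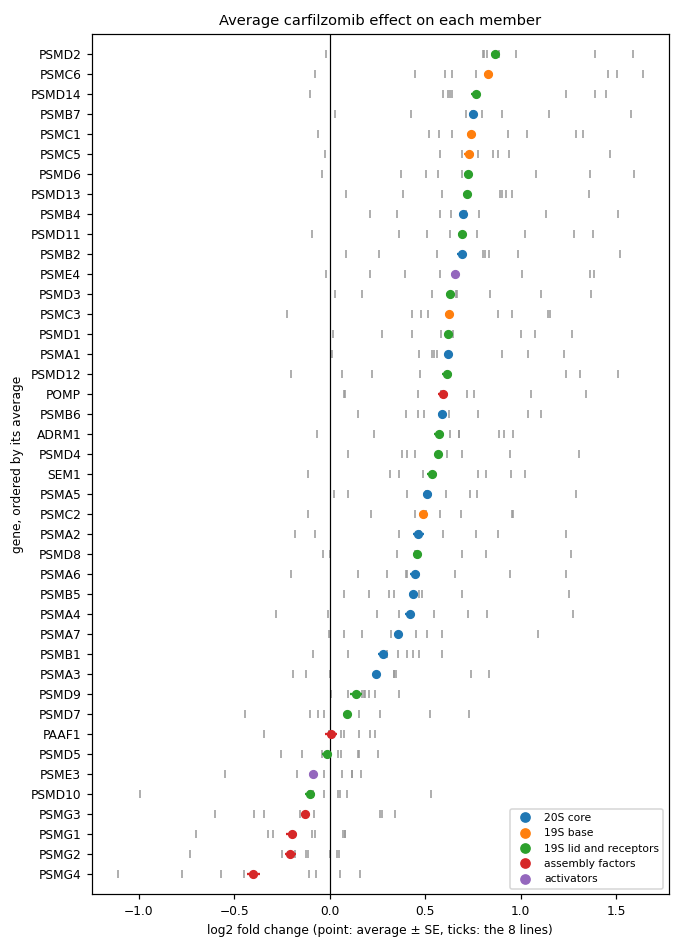
Average log2 fold change over the 8 lines of each of the 42 genes (points, coloured by group, with the SE of the fit), ordered from largest to smallest, and the value in each line as grey ticks. The averages run from 0.86 (PSMD2) to -0.40 (PSMG4), and the ticks spread far more widely than the SE.

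All 42 members responded differently between lines by the test of the difference itself (7 degrees of freedom, edgeR adjusted p from 6.60e-22 for PSMC6 to 0.0375 for PSMD9), where 67.7% of all genes did. CAPAN-2 gave the highest log2 fold change for 33 of the 42 members, and RKO the lowest for 30 and H-929 for 10. The share of all genes with their extreme in each line was not computed, so these counts are not shown to be particular to the members. Each line was also set against the mean of the other 7 in the joint fit.

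RKO was below the other 7 lines for 33 members (9.76% of all genes) and above them for 1 (12.7%). The widest gaps were PSMC6 at -1.04 ± 0.07 and PSMD2 at -1.01 ± 0.07. The 9 members not lower in RKO were PSMD5, PSMD9, PSMD10, PSMG1, PSMG2, PSMG3, PSMG4, PAAF1 and PSME3, that is, the 8 departing chaperones and 1 activator. The chaperone grouping was made after the values were seen. These 9 had averages over lines of at most 0.14 (PSMD9), which left little room for a lower value in RKO. PSMG4 was the one above, at 0.51 ± 0.10. Over the members the median difference of RKO was -0.64, against 0.0027 over all genes.

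CAPAN-2 was above the other 7 for 39 members (18.7% of all genes) and below for 1, PSMG3 (11.1%), with a median difference of 0.76 against 0.0015 over all genes. The widest gaps were PSMD6 at 1.02 ± 0.07 and PSMA4 at 1.00 ± 0.06. H-1299 was above for 24 members (17.1%) and below for 6 (20.1%), led by PSMD12 at 0.94 ± 0.08 and PSMG4 at -0.89 ± 0.10. Its median difference was 0.20 against -0.11 over all genes. The epithelial marker sum was lower with carfilzomib in both lines, at 353 to 380.2 CPM in H-1299 and 10622 to 10947 CPM in CAPAN-2. In CAPAN-2 CDH1, KRT8 and KRT18 fell, while KRT19 rose from a mean of 2241 to 2764 CPM. The mesenchymal markers VIM and ZEB1 summed in H-1299 to 3203 to 3499.6 CPM with DMSO and 2254 to 2295 CPM with carfilzomib. That sum was mostly VIM, which fell from a mean of 3337 to 2180 CPM, while ZEB1 rose from 55.9 to 91.4 CPM. The part of these markers in the proteasome values was not tested.

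H-929 was below the other 7 for 32 members (25.5%) and above for 3 (17.9%): PSMC3 at 0.41 ± 0.07, PSMG3 at 0.35 ± 0.08 and SEM1 at 0.28 ± 0.10. PSMD10 was the furthest below, at -1.21 ± 0.11, followed by PSMA4 at -0.99 ± 0.07. Over the members the median difference of H-929 was -0.39, against 0.05 over all genes. These differences are from the joint fit, where PSMA2, PSMA3, PSMB5, PSMD5 and PSMD8 had lower values in H-929 than in the line alone. They were lower by similar amounts, a shared shift and not one of single genes. RPMI, the other myeloma line, was above for 19 (16.1%) and below for 10 (19.7%), led by PSMC6 at 0.83 ± 0.07. The sum of the 6 plasma-cell markers also moved in both myeloma lines, to between 2853 and 2921 CPM with carfilzomib in H-929 and to between 805 and 951 CPM in RPMI. In H-929 some marker sums of other cell types rose from low levels. Epithelial went from 41.9 to 54.4 CPM up to 89.7 to 97.7, mostly KRT18, with means of 45.5 and 89.1 CPM. Pancreatic duct (SOX9, MUC1 and KRT7) went from 6.40 to 7.01 CPM up to 29.9 to 36.4. Fibroblast (COL1A1 and DCN) went from 0.271 to 1.16 CPM up to 4.76 to 7.004. Other sums fell: lung from 37.7 to 40.7 CPM down to 17.7 to 19.2, and mesenchymal from 1127 to 1231 CPM down to 869 to 987. The leukocyte marker PTPRC fell from 1.23 to 1.94 CPM down to 0.540 to 0.875. Their part in the proteasome values was not tested.

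The other 3 lines had median differences over the members of 0.02 in DLD-1, -0.14 in H-23 and 0.06 in PANC-1. Over all genes these medians were -0.01, -0.02 and -0.01, and that of the members in RPMI was 0.15. DLD-1 was above the other 7 for 5 members (11.7%) and below for 7 (9.14%), H-23 above for 3 (10%) and below for 16 (6.99%), and PANC-1 above for 12 (13.6%) and below for 4 (8.14%). PSMG4 was among those above in each of the 3, at 0.63 ± 0.10 in DLD-1, 0.31 ± 0.10 in H-23 and 0.37 ± 0.10 in PANC-1. The epithelial marker sum in DLD-1 went from 8487 to 9556 CPM with DMSO up to 10690.4 to 11046 CPM with carfilzomib. KRT8, KRT18 and KRT19 rose there, while CDH1 fell from a mean of 1089 to 984 CPM. The part of these markers was not tested. PSMB5 was furthest below in PANC-1, at -0.27 ± 0.07.

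Before any drug the lines already differed in proteasome RNA. For levels with DMSO the 24 solvent libraries were scaled together, so lines can be compared and values differ slightly from those above. All 42 members differed between lines (98.8% of 21116 genes did, in edgeR's test). The summed level was lowest in RKO, at 4313 ± 138 CPM (SD, n = 3), then PANC-1 at 4862 ± 38.8, CAPAN-2 at 5148 ± 404, DLD-1 at 5193 ± 25.4, H-929 at 5334 ± 191, H-23 at 6325 ± 114, RPMI at 7339 ± 178 and H-1299 at 7529 ± 245. Neighbours in this order from PANC-1 to H-929, and RPMI and H-1299, differed by less than the larger of their SDs, while the other steps were larger. CAPAN-2 replicate 3 was the low one of its DMSO libraries, at 4708 against 5234 and 5503 CPM.

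For the core alone RKO stood at 1136 ± 40.6 CPM, below H-929 at 1571 ± 89.1, while H-1299 had 2733 ± 77.1. RKO was the lowest line for 16 members, 7 of them in the core. It was the highest for 3, PSMD2, PSMD12 and PSME4, at 686 ± 47.1, 160 ± 4.85 and 169.6 ± 3.31 CPM. The share of all genes with their lowest or highest level in RKO was not computed. The ratio of the highest to the lowest line had a median of 3.44 over the members, and ran from 1.90 (PSMD11) to 9.36 (PSMB1, whose row is uncertain as given above). CAPAN-2, with the largest response, and RKO, with the smallest, were both in the lower part of the order of starting sums.

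**Figure D5:**
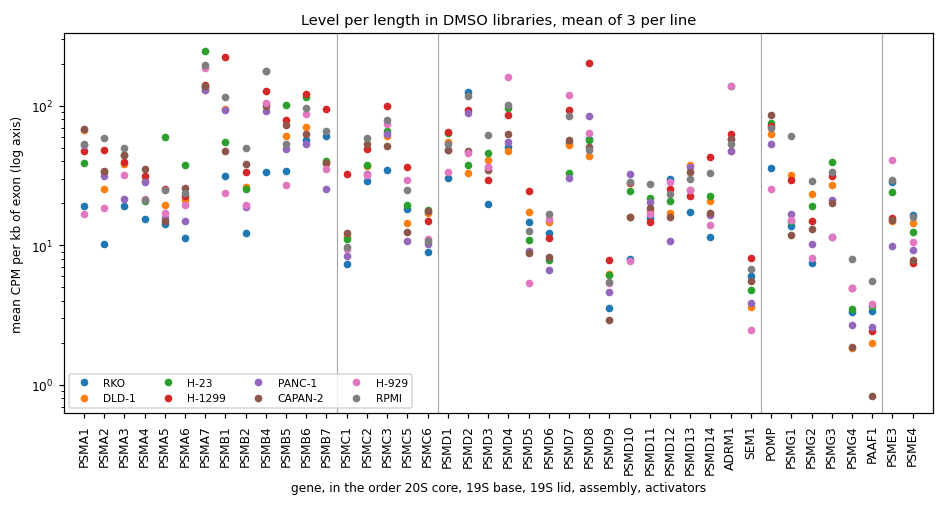
Mean level per kilobase of exon (CPM per kb, log axis, the 24 DMSO libraries scaled together) of each member in each line. PSMA7 leads at a mean of 164 and PAAF1 trails at 3.03, and the lines span between 1.90-fold and 9.36-fold per gene.

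Between genes, levels are compared per kilobase of exon in the GENCODE release 29 annotation, a length that sums all isoforms and so understates genes with long rare exons. PSMA7 was the highest, at a mean over lines of 164 CPM per kb, and PAAF1 the lowest, at 3.03. The medians per group were 45.5 for the core, 20.8 for the base, 25.4 for the lid and receptors, 20.02 for the assembly factors and 17.1 for the activators. Within the core, whose subunits are present in equal numbers in the particle, levels per kb ran from 22.2 (PSMA6) to that of PSMA7. The spread over all 42 members was wider with carfilzomib in each of the 8 lines, by little in RKO, but not within every group. The SD of log2 levels per kb over the 42 genes went from 1.56 to 1.90 in CAPAN-2 and from 1.45 to 1.66 in H-1299, against 1.28 to 1.29 in RKO. Within the base it was narrower in 7 of the 8 lines, as in RPMI, from 1.38 to 1.15, and within the core it was wider in 5 lines and narrower in 3.

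Other genes of the pathway were taken from 3 lists of proteasome biology. Of 15 enzymes and regulators that bind the proteasome, 10 had higher and 5 lower averages (19.8% and 23.9% of all genes), with a median of 0.32. ZFAND2A, a zinc finger protein that joins stressed proteasomes, averaged 1.59 ± 0.040, from -0.04 in RKO to 3.85 in H-1299. TXNL1, a thioredoxin-like protein of the 19S particle, averaged 0.64 and rose in 7 lines, and the deubiquitinase USP14 averaged 0.45 and rose in 4. AKIRIN2, which carries proteasomes into the nucleus, averaged 0.32. The inhibitor PSMF1 (-0.10), the ubiquitin ligase UBE3C (-0.19), the shuttle factor UBQLN4 (-0.20) and the deubiquitinase UCHL5 (-0.09) were among those with lower averages. UCHL5 did not pass with library totals (-0.05, edgeR adjusted p = 0.0622). UBQLN2, among the higher averages at 0.09, did not pass without the replicate 2 libraries of all groups (0.05, edgeR adjusted p = 0.383).

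Among 11 genes that make, process or partner NFE2L1, 10 had higher averages and 1 lower (19.8% and 23.9% of all genes), with a median of 0.23. One of the higher ones, NFE2L2 (0.07), did not pass without the replicate 2 libraries of all groups (0.05, edgeR adjusted p = 0.103). NFE2L1 itself averaged 0.24, and the partners MAFF and MAFG 0.71 and 0.69. The segregase VCP averaged 0.46 and was highest in CAPAN-2 (1.22). DDI2, the protease that cleaves NFE2L1, had the lower average, -0.31 ± 0.023, with falls in both myeloma lines, H-1299 and CAPAN-2. In RKO, MAFF, MAFG, VCP and NFE2L1 were not called, at -0.12, -0.08, 0.10 and -0.04.

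Of 7 subunits linked with immune, thymic or germ cells, 3 were tested, each in all 8 lines and so not confined to such cells. The rows used for PSMB8, PSMB9, PSMB11 and PSMA8 passed the filter on low counts in no line. Whether these rows hold all reads of their genes was not checked, so absence of the transcripts is not shown. PSMB10, which replaces PSMB7 in the immunoproteasome, had a lower average (-0.30 ± 0.027) and fell in 4 lines, opposite to PSMB7. PSME1 and PSME2, the interferon-induced activator, lie on several rows each, their levels are uncertain, and neither was called on average.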

How the data were processed

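The authors deposited 1 matrix of raw read counts per gene for 48 libraries, which was used as deposited. The submitters' processing notes name bcl2fastq 2.19, FastQC, Trimmomatic, HISAT2, DESeq2 and the hg38 build, without roles. The counting program, its annotation and whether it used strand are not given in the sources used here, so reads of a gene and an overlapping antisense gene cannot be told apart. Per the labels, replicates are biological, and libraries came from a stranded total RNA kit. No molecular identifiers are named, so counts are taken as reads and not as independent molecules.

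Counts were tested in R 4.3.3 with edgeR 4.0.16 and its quasi-likelihood F test, after filterByExpr and with TMM scaling. Each line was fitted alone for its own comparison. The 48 libraries in 16 groups were fitted together for the average, the 7 degree of freedom test that lines differ, and each line against the mean of the other 7. The 24 DMSO libraries were fitted for starting levels. Adjusted p-values are Benjamini-Hochberg over all genes of a fit, called under 0.05. CPM are counts relative to the TMM-scaled library total. The scripts were tested on simulated data. Genes described in every library are PSMB5, POMP, the largest and smallest average of each group, the largest F, and the 3 largest falls in the line with most lower calls. The members, lists and rules were chosen with earlier results of these data known. PSMD5, PSMD9 and PSMD10 are listed with the lid by symbol.

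Alternatives were DESeq2 1.42.0 (its Wald test, and its size factors in edgeR), library totals, testing all genes, testing genes that average 50 counts or more, 1 fit of all libraries, a replicate block, leaving out each library or replicate number, and the 8 lines as units in limma 3.58.1. The closest 2 replicates of any group differed by a chi-square of 3.33 per degree of freedom, so none was counted as 1 library. Gene positions and exon lengths are from GENCODE release 29 (GRCh38), and promoters from RefSeq (GRCh38.p14).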

Additional observations from a re-analysis of the deposited data

Results flagged for a closer look

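The response to carfilzomib differed between lines for all 42 members in the joint edgeR fit, by a test of the difference itself (67.7% of all genes did). Each line was tested against the mean of the other 7 in the same fit, with the share of all genes in brackets. RKO was higher for 1 member (12.7%) and lower for 33 (9.76%), and CAPAN-2 higher for 39 (18.7%) and lower for 1 (11.1%). H-929 was higher for 3 (17.9%) and lower for 32 (25.5%). H-1299 was higher for 24 (17.1%) and lower for 6 (20.1%), and RPMI higher for 19 (16.1%) and lower for 10 (19.7%). DLD-1 was higher for 5 (11.7%) and lower for 7 (9.14%), and PANC-1 higher for 12 (13.6%) and lower for 4 (8.14%). H-23 was higher for 3, a share below that of all genes, and lower for 16 (6.99%). The members' share was also below that of all genes for higher in RKO and H-929 and lower in CAPAN-2 and H-1299. It was close to it for higher in DLD-1 (11.9%) and lower in PANC-1 (9.52%). The groups hold 3 libraries each, too few to test a single library for standing apart.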

How the results depend on the processing

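Over the alternatives tried, no member changed sign in a line, or in the average, where either fit called it. Of 253 calls of a member in a line, 250 were kept by DESeq2's Wald test, all but 2 by edgeR with DESeq2's size factors, 245 by library totals, 250 with a mean of at least 50 counts, 246 without a filter and 237 in 1 fit of all libraries. Scaling by library totals moved the median of all genes in H-1299 from -0.02 to -0.12 (log2), with the members at 0.66, and the members' median in RKO from -0.02 to 0.02. In H-929, going from the line alone to the joint fit moved PSMD5 from -0.25 to -0.42 and PSMD8 from -0.03 to -0.20. PSMA2, PSMA3 and PSMB5 moved down there by similar amounts, so the shift was shared and not particular to a gene. Each fit scales its own libraries, and the part of that scaling in this shift was not tested. With a mean of at least 50 counts, PSMA4 in H-929 moved up from -0.28 to -0.17 and PAAF1 from -0.34 to -0.23. Calls gained or lost in H-929 under these settings came with such shared shifts.

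In RKO, 1 member was called higher under library totals, no filter, DESeq2's Wald test and 1 fit of all libraries. There 0 were lower under library totals, 4 without a filter, and 2 by DESeq2's Wald test and in 1 fit of all libraries. In DLD-1, 1 was lower without a filter and by DESeq2's Wald test. In H-23, 2 were lower under library totals and without a filter, and in H-1299, 5 were lower under library totals and in 1 fit of all libraries. Against the other 7 lines, PANC-1 was lower for 8 members under DESeq2's size factors and under library totals, and for 10 with a mean of at least 50 counts. H-23 was higher for 1 and RPMI lower for 6 under library totals. With the 8 lines as units in limma, 0 averages were called higher and 0 lower. The cause of these shifts was not tested.

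Leaving out each library of a line gave 0 to 1 higher and 0 to 2 lower in RKO, 0 to 1 lower in DLD-1 and 1 to 2 lower in H-23. Over all such fits, 1462 calls were kept and 56 lost. Without each replicate number in all groups, which removes 16 libraries at a time, the counts against the other 7 lines were 3 to 4 higher and 4 to 7 lower in DLD-1, and 0 to 2 higher and 8 to 15 lower in H-23. They were 7 to 10 higher and 1 to 5 lower in PANC-1, 0 to 1 lower in CAPAN-2 and 5 to 9 lower in RPMI.

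The replicate numbers were not shown to pair the samples: same-numbered DMSO and carfilzomib libraries had correlations of -0.06 to 0.07 in 24 pairs, none above 0.1, though in H-23 and PANC-1 every library matched its own number best. With the replicate number as a block, RKO had 1 higher and 2 lower, PANC-1 37 higher and H-929 21 higher and 7 lower. The block kept 250 calls, lost 3 and gained 3, and left the average at 34 higher and 6 lower.

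The lowest count of any member in a library was 73, so depth limits the fold changes of the least expressed members most. The number of replicates, 3 per group, limits what a call in RKO or H-929 can show.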
